A study of Mus musculus with 12 samples.

Results

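The set described here comprises 41 mouse genes that copy DNA or supply its building blocks, listed by their known function, with earlier results of these data in view, and grouped into 6 classes. Origin licensing was represented by 4 genes, the replicative helicase by 12, DNA polymerases and primase by 7, the sliding clamp and its loader with flap processing and ligation by 10, nucleotide supply by 5, and the upkeep of methylation and uracil repair on new strands by 3. All 41 were found by their Ensembl identifiers, among 27742 genes listed for the AML12 line and 29092 for the iWAT line. All 41 also reached the minimum level for testing in both lines, which was at least 0.5 FPKM (fragments per kilobase of transcript, scaled to library size) in at least 3 libraries of a line.

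RNA was sequenced from 2 mouse cell lines that differed in tissue of origin and were each given diethyl phthalate (DEP), a plasticizer, at 50 µM for 48 h once confluent. AML12 is an immortalised hepatocyte line derived from the liver of a mouse with a TGF-alpha transgene, grown here in DMEM/F12, and iWAT is labelled a white adipocyte line, grown in DMEM. Each line had 3 DEP libraries and 3 control libraries, which the titles call DMSO and the treatment field describes by the medium alone. The labels do not say whether replicates were separate cultures, so the p-values reflect no more than the spread among these libraries, which may be technical.

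Before S phase, the origin recognition complex, Cdc6 and Cdt1 load the MCM2 to MCM7 rings onto DNA. The rings become the moving helicase when Cdc45 and the GINS complex join them. Primase and polymerase alpha start each strand, polymerases delta and epsilon extend it, the PCNA clamp placed by replication factor C keeps them on the template, and Fen1 and Lig1 join the fragments of the lagging strand. Ribonucleotide reductase, thymidylate synthase, thymidine kinase and dUTPase provide and clean the deoxynucleotides. Many of these genes are known targets of the E2F transcription factors, and in the liver they are best known for their induction when hepatocytes re-enter the cell cycle.

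Reads recovered from the FPKM values gave library totals from 42845105 to 54585090. The lowest count of any member in a library was 134 reads, for Fen1 in AML12, and 587 reads, for Pole2 in iWAT. Every pair of replicates differed beyond sampling noise, so each library was counted as its own replicate. The hepatocyte list gave a mixed picture in AML12 with DMSO. The liver factor Hnf4a averaged 88.5 FPKM, transferrin (Trf) 392 FPKM and albumin (Alb) 25.9 FPKM, and the keratins Krt8 and Krt18, shared by simple epithelia, 1270 and 1468 FPKM. Other hepatocyte genes were low, with Apoa1 at 3.26 FPKM, Serpina1a at 0.645 FPKM and Cps1 at 0.417 FPKM, and Ass1 was listed at 0. The adipocyte list was also mixed in iWAT with DMSO. The regulator Pparg averaged 9.84 FPKM, the lipase Lpl 8.46 FPKM and Fabp4 1.62 FPKM, while genes that define mature adipocytes were at or near 0: Lep was not listed, and Adipoq and Plin1 averaged 0.0184 and 0.00285 FPKM.

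In AML12 cells the replication genes were higher with DEP almost without exception. Of the 41 genes, 40 rose, none fell, and only Cdt1 did not pass the test, which was limma on log2(FPKM + 1) with Benjamini-Hochberg adjustment over all 12929 genes tested and a threshold of 0.05. Among all tested genes 39.2% were called, 23.9% up and 15.3% down. At an unadjusted p below 0.05 the counts of members were again 40 up and 0 down, and voom on recovered reads also gave 40 up and 0 down. At least the 39.2% of all tested genes called above also passed that unadjusted level. The median log2 fold change of the members was 0.52, against 0.03 over all tested genes, and the ratios of mean FPKM ran from 1.08 for Cdt1 to 1.90 for Tyms. In bulk libraries, more cells in S phase and more of each transcript per cell cannot be told apart.

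The members lay in the upper tail of the AML12 response. In the order of log2 fold changes, 37 of the 41 were among the top 10% of tested genes, 32 among the top 5% and 9 among the top 1%. Tyms ranked 44 of 12929, Cdc6 60 and Tk1 70. These ranks rest on log2(FPKM + 1), which understates the changes of low genes. For 40 members every DEP library was above every DMSO library, where 31.6% of all tested genes were separated in that direction and 52% in either. Centring each library on its median moved the calls over all genes from 3092 up and 1982 down to 2357 up and 2545 down, while the members stayed at 40 up and 0 down with a median of 0.48.

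In iWAT cells the same genes differed little between DEP and DMSO. Of the 41, 6 rose (Cdt1, Mcm3, Mcm4, Pole, Uhrf1 and Dnmt1), 1 fell (Rrm2), and 34 did not pass the same test over 13482 genes, of which 8.54% were called, 4.03% up and 4.52% down. The median log2 fold change was 0.04, against 0.01 over all tested genes, and the ratios of mean FPKM ran from 0.841 for Rrm2 to 1.13 for Cdt1. At an unadjusted p below 0.05, 13 members were higher and 3 lower. Many other genes passed that level too: Mcm2, at an unadjusted p of 0.0486, ranked 3298 of all 13482 tested genes by p. Every DEP library lay above every DMSO library for 14 members and below for 2, Rrm2 and Tyms, where all tested genes gave 17.2% and 14%, or 31.1% in either direction. With any 1 of the 6 iWAT libraries left out the count of rises was 2 or 3, and of the 7 calls those of Cdt1, Mcm3 and Rrm2 held each time.

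**Figure D1:**
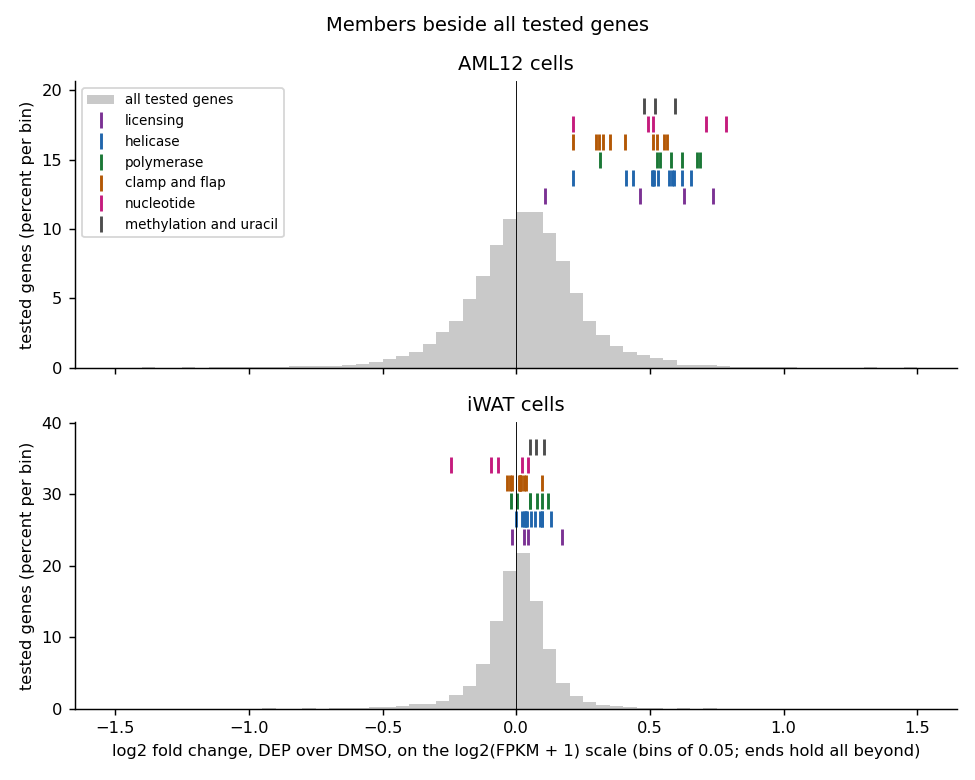
Distribution of the log2 fold change, DEP over DMSO on the log2(FPKM + 1) scale, over all tested genes in AML12 (top) and iWAT (bottom), as percent of genes per bin, with each member as a tick coloured by class. The AML12 ticks lie to the right of 0, from 0.11 to 0.78 around a median of 0.52, while the iWAT ticks lie between -0.25 and 0.17 around a median of 0.04.

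The promoters of the members were also searched for letters they share. RefSeq (assembly GRCm38.p6, not the build of the expression files) held start-site windows of 300 bases, from 250 before to 50 after the start, for 34 of the 41 members, all but Gins1, Gins2, Gins4, Mcm4, Pole, Prim2 and Rfc2. Matched on both strands, 4 E2F-type words of 8 letters were sought, TTTCCCGC, TTTCGCGC, TTTGCCGC and TTTGGCGC, which can overlap one another on opposite strands. They were present in 6, 8, 0 and 7 members, in that order. At least 1 such word stood in a window of 15 of the 34 members (44.1%) and of 704 of 27025 genes in the whole table (2.6%). The word was found in 3 of 4 licensing genes, 5 of 8 helicase genes, 3 of 5 polymerase genes, 2 of 9 clamp and flap genes, 0 of 5 nucleotide genes and 2 of 3 methylation and uracil genes. Tyms, Tk1 and Rrm2, which hold none of the 8-letter words in these windows, also rose in AML12, and Cdt1, which holds 1, did not pass the test. With the first T dropped, the 7-letter words stood in 22 of the 34 members (64.7%) and in 10.9% of all genes. By class these shorter words were in 3 of 4 licensing, 5 of 8 helicase, 4 of 5 polymerase, 6 of 9 clamp and flap, 2 of 5 nucleotide (Rrm1 and Rrm2) and 2 of 3 methylation and uracil genes. A match describes letters, not a bound site, and a link between these words and the response to DEP was not tested. The shares of all genes cover the whole RefSeq set, not only the genes tested in these lines. The box CCAAT was present in 21 of the 34 members (61.8%) and 41.1% of all genes. The stretches below, with the matched words in capitals, show the word in both orientations and as overlapping or repeated copies, in genes of 4 classes.
Orc1, chr4:108579407-108579453, plus strand: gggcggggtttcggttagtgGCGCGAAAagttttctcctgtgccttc
Cdc6, chr11:98907993-98908040, plus strand: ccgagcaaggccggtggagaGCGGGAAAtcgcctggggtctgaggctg
Mcm5, chr8:75109336-75109387, plus strand: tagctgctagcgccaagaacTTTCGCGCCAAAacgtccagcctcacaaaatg
Mcm6, chr1:128359725-128359835, minus strand: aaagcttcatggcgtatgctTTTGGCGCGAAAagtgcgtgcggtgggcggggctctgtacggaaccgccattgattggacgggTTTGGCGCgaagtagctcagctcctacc
Pola1, chrX:93632266-93632313, minus strand: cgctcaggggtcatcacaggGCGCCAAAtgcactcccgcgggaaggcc
Uhrf1, chr17:56304108-56304155, plus strand: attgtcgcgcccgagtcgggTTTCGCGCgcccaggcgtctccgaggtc

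Of the 4 licensing genes, 3 rose in AML12, with a class median of 0.54 on the log2 scale. Cdc6, the ATPase that brings the helicase to the origin, read 3.97, 4.47 and 3.83 FPKM with DMSO and 7.32, 7.33 and 7.76 FPKM with DEP (log2 fold change 0.74, SE 0.05, adjusted p = 0.000143). Orc6, the smallest subunit of the origin recognition complex, read 12.2, 12.4 and 12.2 FPKM with DMSO and 20.9, 19.4 and 18.3 FPKM with DEP (log2 fold change 0.63, SE 0.05, adjusted p = 0.000134), and the ATPase subunit Orc1 read 1.74, 1.54 and 1.62 FPKM with DMSO and 2.62, 2.45 and 2.81 FPKM with DEP (log2 fold change 0.46, SE 0.06, adjusted p = 0.00119). The groups did not overlap for any of these 3. In iWAT none of them passed the test. Cdc6 read 16.4, 16.6 and 16.5 FPKM with DMSO and 17.1, 17.2 and 16.8 FPKM with DEP there, and its DEP libraries all lay slightly above the controls (log2 fold change 0.04, SE 0.02, adjusted p = 0.267). Orc6 read 46.8, 49.6 and 48.9 FPKM with DMSO and 48.7, 49.4 and 49.97 FPKM with DEP (adjusted p = 0.578) and Orc1 5.78, 5.59 and 5.49 FPKM with DMSO and 5.54, 5.69 and 5.40 FPKM with DEP (adjusted p = 0.815), with overlapping groups for both.

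Cdt1, the helicase loading factor that is destroyed once S phase begins, stood apart in both lines. In AML12 it read 18.4, 18.2 and 19.2 FPKM with DMSO and 18.6, 21.9 and 20.03 FPKM with DEP, so that DEP replicate 1 fell among the controls and the test was not passed (log2 fold change 0.11, SE 0.06, adjusted p = 0.171). Without that library it would have been called, at a log2 fold change of 0.16 and an adjusted p of 0.0366. In iWAT Cdt1 was the largest rise of the set, from 76.3, 76.7 and 75.7 FPKM to 86.2, 85.3 and 86.2 FPKM, with a wide gap between groups (log2 fold change 0.17, SE 0.02, adjusted p = 0.0017). Set against geminin (Gmnn), the protein that inhibits Cdt1, the ratio of FPKM values in AML12 was 1.04, 1.14 and 1.38 with DMSO and 0.826, 1.003 and 0.903 with DEP, lower in every DEP library. In iWAT the same ratio was 2.32, 2.40 and 2.25 with DMSO and 2.75, 2.69 and 2.64 with DEP, higher in every DEP library. These ratios were chosen after the values were seen and carry no test.

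All 12 helicase genes rose in AML12, with a median of 0.52. The 6 ring subunits, Mcm2 to Mcm7, stayed within a narrow band from 0.51 (Mcm7) to 0.65 (Mcm3), around a median of 0.58. Mcm6 read 26.98, 26.96 and 26.3 FPKM with DMSO and 41.2, 39.3 and 40.2 FPKM with DEP (log2 fold change 0.57, SE 0.03, adjusted p = 2.14e-05). Mcm5 read 20.1, 19.5 and 18.8 FPKM with DMSO and 30.1, 30.9 and 30.2 FPKM with DEP (log2 fold change 0.62, SE 0.03, adjusted p = 2.68e-05), and Mcm2 read 14.3, 14.7 and 14.2 FPKM with DMSO and 21.9, 22.8 and 21.9 FPKM with DEP (log2 fold change 0.59, SE 0.03, adjusted p = 2.68e-05). In all 6 the lowest DEP library exceeded the highest DMSO library. Mcm3 read 24.5, 22.9 and 24.3 FPKM with DMSO and 37.1, 39.03 and 38.5 FPKM with DEP, the largest rise of the ring (log2 fold change 0.65, SE 0.03, adjusted p = 3.47e-05), and Mcm4 read 25.5, 24.1 and 24.5 FPKM with DMSO and 36.3, 36.4 and 34.5 FPKM with DEP (log2 fold change 0.52, SE 0.03, adjusted p = 7.28e-05). Mcm10, needed to activate the assembled helicase, read 3.06, 2.92 and 2.90 FPKM with DMSO and 4.71, 4.54 and 4.69 FPKM with DEP (log2 fold change 0.51, SE 0.04, adjusted p = 0.000153).

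The partners that turn the ring into a moving helicase spread more widely. Cdc45 averaged 4.32 ± 0.336 FPKM with DMSO and 6.97 ± 0.564 FPKM with DEP (SD, n = 3) in AML12, a log2 fold change of 0.58. The 4 GINS genes had a median of 0.42, from 0.21 for Gins4 to 0.53 for Gins2, with Gins1 at 0.44 and Gins3 at 0.41. The log2(FPKM + 1) scale understates low genes such as Gins3, whose ratio of mean FPKM was 1.54, against 1.38 for Gins1. Gins4 was the most abundant of the 4 and rose least, from 25.8 to 30.0 FPKM, while Gins2 went from 2.72 to 4.38 FPKM. Gins2 shares 67.3% of its exon bases with Gse1 on the opposite strand, which averaged 2.40 FPKM with DMSO and 2.96 FPKM with DEP in AML12. Whether counting used strand is not given in the sources used here, so reads of the pair may be mixed.

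In iWAT, 2 of the 12 helicase genes rose, both subunits of the ring. Mcm3 read 119.6, 119 and 118 FPKM with DMSO and 128, 131 and 130.5 FPKM with DEP (log2 fold change 0.13, SE 0.02, adjusted p = 0.0068). Mcm4 read 107, 106 and 109 FPKM with DMSO and 114, 116 and 116 FPKM with DEP (log2 fold change 0.10, SE 0.02, adjusted p = 0.0189), and its adjusted p reached 0.0754 when a library was left out. In both genes the DEP libraries lay above all controls by a small margin. Mcm6, the member with the smallest p of the helicase in AML12, read 96.4, 93.96 and 96.2 FPKM with DMSO and 97.1, 93.5 and 95.5 FPKM with DEP in iWAT, with the groups overlapping (log2 fold change -0.00, SE 0.02, adjusted p = 0.953). Mcm2 read 94.3, 94.7 and 92.5 FPKM with DMSO and 97.2, 96.8 and 95.8 FPKM with DEP (log2 fold change 0.04, SE 0.02, adjusted p = 0.199), Mcm5 read 72.5, 76.4 and 71.5 FPKM with DMSO and 76.7, 76.3 and 76.2 FPKM with DEP (log2 fold change 0.06, SE 0.03, adjusted p = 0.253), and Mcm10 read 15.96, 16.5 and 16.6 FPKM with DMSO and 17.2, 17.4 and 16.96 FPKM with DEP (log2 fold change 0.07, SE 0.03, adjusted p = 0.139). Of these 3, the groups overlapped for Mcm5 alone. The class median was 0.05.

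**Figure D2:**
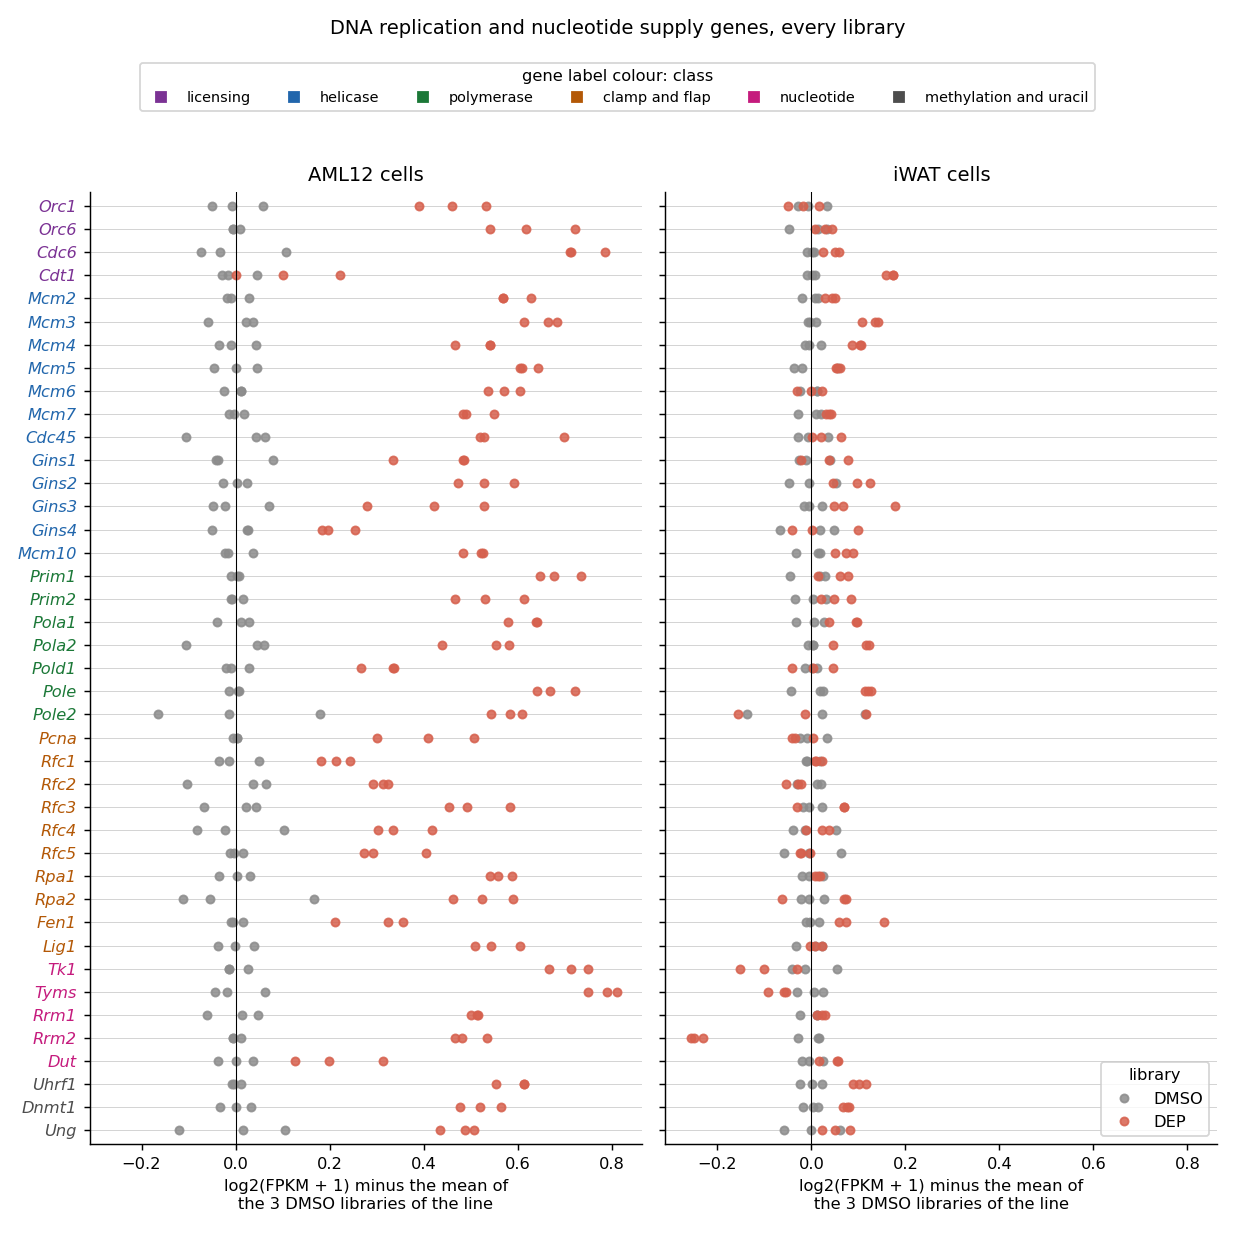
Each library of each member as log2(FPKM + 1) minus the mean of the 3 DMSO libraries of its line, DMSO in grey and DEP in red, genes coloured by class. In AML12 the red points are clear of the grey ones for 40 genes, with Cdt1 the exception, while in iWAT they overlap or lie close together, apart from Cdt1 above and Rrm2 below.

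Polymerase and primase genes had the highest class median in AML12, 0.58, and all 7 rose. Prim1, the catalytic primase subunit that lays the RNA primer, read 6.78, 6.68 and 6.75 FPKM with DMSO and 11.9, 11.1 and 11.4 FPKM with DEP (log2 fold change 0.69, SE 0.03, adjusted p = 2.57e-05). Pole, the catalytic subunit of the leading-strand polymerase epsilon, read 3.79, 3.78 and 3.72 FPKM with DMSO and 6.57, 6.43 and 6.86 FPKM with DEP (log2 fold change 0.68, SE 0.04, adjusted p = 3.99e-05), and Pola1, the catalytic subunit of polymerase alpha, read 2.62, 2.45 and 2.58 FPKM with DMSO and 4.54, 4.53 and 4.31 FPKM with DEP (log2 fold change 0.62, SE 0.04, adjusted p = 9.6e-05). The groups were well apart for all 3. Pola2, the regulatory subunit of polymerase alpha, read 6.42, 5.61 and 6.34 FPKM with DMSO and 8.64, 9.45 and 9.65 FPKM with DEP (log2 fold change 0.53, SE 0.06, adjusted p = 0.000736). Prim2, the large primase subunit, and Pole2, the second subunit of polymerase epsilon, had log2 fold changes of 0.54 and 0.58. Pold1, the catalytic subunit of the lagging-strand polymerase delta, rose least, from 10.6 to 13.4 FPKM (log2 fold change 0.31, SE 0.03, adjusted p = 0.000457). The ratio of Pole to Pold1 in FPKM was 0.351, 0.363 and 0.355 with DMSO and 0.509, 0.474 and 0.504 with DEP. In iWAT it was also higher in every DEP library, with 0.789, 0.771 and 0.742 with DMSO and 0.813, 0.831 and 0.863 with DEP. This ratio too was chosen after the values were seen and was not tested.

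In iWAT only Pole of the 7 polymerase and primase genes was called, with 19.4, 19.3 and 18.4 FPKM with DMSO and 20.8, 20.6 and 20.7 FPKM with DEP (log2 fold change 0.12, SE 0.03, adjusted p = 0.0361). That call was lost whichever library was left out, with adjusted p up to 0.0961. Pola2 read 23.7, 23.9 and 23.9 FPKM with DMSO and 25.98, 26.1 and 24.7 FPKM with DEP, every DEP library above the controls (log2 fold change 0.10, SE 0.03, adjusted p = 0.0735), and it was called with voom on recovered reads (adjusted p = 0.0124). Pola1 read 12.2, 12.5 and 12.7 FPKM with DMSO and 12.8, 13.4 and 13.4 FPKM with DEP (log2 fold change 0.08, SE 0.03, adjusted p = 0.169), its DEP libraries just above the controls. Prim1, which had the smallest p of the class in AML12, read 41.01, 38.9 and 40.7 FPKM with DMSO and 42.4, 41.95 and 40.6 FPKM with DEP in iWAT, with overlapping groups (log2 fold change 0.05, SE 0.03, adjusted p = 0.33).

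The clamp and flap genes all rose in AML12 as well, 10 of 10, with the lowest class median, 0.38. Rpa1, the large subunit of the single-strand binding protein RPA, read 16.6, 16.2 and 16.98 FPKM with DMSO and 24.9, 25.4 and 24.6 FPKM with DEP (log2 fold change 0.56, SE 0.03, adjusted p = 2.69e-05). Lig1, the ligase that seals lagging-strand fragments, read 12.1, 11.4 and 11.7 FPKM with DMSO and 17.6, 18.4 and 17.1 FPKM with DEP (log2 fold change 0.55, SE 0.04, adjusted p = 7.95e-05), and Rfc3, a clamp loader subunit, read 3.96, 4.29 and 4.36 FPKM with DMSO and 6.79, 6.32 and 6.12 FPKM with DEP (log2 fold change 0.51, SE 0.05, adjusted p = 0.000409). These 3 were as separated as the helicase genes. The 5 clamp loader genes Rfc1 to Rfc5 had a median of 0.32, with Rfc1 lowest at 0.21 and Rfc3 highest. Rfc2 read 6.02, 5.89 and 5.25 FPKM with DMSO and 7.22, 7.40 and 7.33 FPKM with DEP (log2 fold change 0.31, SE 0.05, adjusted p = 0.00298), Rfc4 and Rfc5 had log2 fold changes of 0.35 and 0.32, and the RPA subunit Rpa2 had 0.53. Fen1, the flap endonuclease, read 1.33, 1.30 and 1.29 FPKM with DMSO and 1.95, 1.89 and 1.67 FPKM with DEP (log2 fold change 0.30, SE 0.06, adjusted p = 0.00738). It shares 78.8% of its exon bases with Gm10143 on the opposite strand, which averaged 0.154 FPKM with DMSO and 0.283 FPKM with DEP. Fen1 also shares 5.4% with Tmem258 on the opposite strand, which averaged 55.5 FPKM with DMSO and 53.3 FPKM with DEP. Reads of these genes may be mixed.

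Pcna, the clamp itself, read 38.1, 38.1 and 37.9 FPKM with DMSO and 54.4, 47.05 and 50.8 FPKM with DEP in AML12 (log2 fold change 0.41, SE 0.05, adjusted p = 0.000993). A processed pseudogene, Pcna-ps2, was listed at 51.4, 54.5 and 60.1 FPKM with DMSO and 82.2, 70.8 and 78.7 FPKM with DEP in the same line, above Pcna in every library and higher in every DEP library (log2 fold change 0.47, SE 0.07, adjusted p = 0.00238). In iWAT it averaged 2.87 FPKM with DMSO and 3.06 FPKM with DEP, where Pcna read 124, 123 and 128 FPKM with DMSO and 121, 122 and 125 FPKM with DEP (log2 fold change -0.02, SE 0.02, adjusted p = 0.575). Reads may be divided between such copies, so the Pcna level in AML12 is uncertain.

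None of the 10 clamp and flap genes passed the test in iWAT, where the class median was 0.01 and 3 of the 10 fold changes were below 0. Fen1 had the smallest p, at 5.24, 5.33 and 5.21 FPKM with DMSO and 5.59, 5.97 and 5.52 FPKM with DEP (log2 fold change 0.10, SE 0.04, adjusted p = 0.176), and all its DEP libraries were above the controls. Rfc2 read 14.1, 13.7 and 14.2 FPKM with DMSO and 13.8, 13.7 and 13.4 FPKM with DEP (log2 fold change -0.04, SE 0.03, adjusted p = 0.452), and Rfc3 read 27.9, 27.1 and 27.3 FPKM with DMSO and 28.8, 28.8 and 26.8 FPKM with DEP (log2 fold change 0.04, SE 0.03, adjusted p = 0.56). Rpa1 read 48.1, 46.6 and 47.1 FPKM with DMSO and 47.8, 47.7 and 47.5 FPKM with DEP (adjusted p = 0.719) and Lig1 42.4, 40.8 and 41.9 FPKM with DMSO and 42.4, 41.9 and 41.6 FPKM with DEP (adjusted p = 0.841). The groups overlapped for the last 4.

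Nucleotide supply held both the largest rise of the set in AML12 and the only fall in iWAT. In AML12 all 5 genes rose, with a median of 0.51. Tyms, thymidylate synthase, read 3.96, 4.34 and 4.05 FPKM with DMSO and 7.84, 7.60 and 7.97 FPKM with DEP (log2 fold change 0.78, SE 0.04, adjusted p = 3.62e-05). Tk1, the thymidine kinase of S phase, read 10.03, 10.03 and 10.3 FPKM with DMSO and 17.7, 16.7 and 17.3 FPKM with DEP (log2 fold change 0.71, SE 0.03, adjusted p = 2.08e-05), and Rrm2, the small subunit of ribonucleotide reductase, read 50.04, 50.1 and 50.6 FPKM with DMSO and 73.2, 70.6 and 69.8 FPKM with DEP (log2 fold change 0.49, SE 0.02, adjusted p = 2.68e-05). Each DEP library of these genes was far above the controls. Rrm1, the large subunit of the reductase, averaged 11.9 ± 0.492 FPKM with DMSO and 17.3 ± 0.0915 FPKM with DEP (SD, n = 3; log2 fold change 0.51, adjusted p = 8.59e-05). Dut, the dUTPase that keeps uracil out of DNA, averaged 28.1 ± 0.743 FPKM with DMSO and 32.8 ± 2.21 FPKM with DEP (SD, n = 3), the least change of the class (log2 fold change 0.21, SE 0.05, adjusted p = 0.0129).

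In iWAT, Rrm2 read 74.7, 74.7 and 72.4 FPKM with DMSO and 62.01, 62.9 and 61.7 FPKM with DEP, lower in each DEP library (log2 fold change -0.25, SE 0.02, adjusted p = 0.000833). This call held under each alternative setting and with any 1 library left out. Tyms read 20.6, 21.4 and 21.1 FPKM with DMSO and 20.2, 19.6 and 20.1 FPKM with DEP, with all DEP libraries below the controls (log2 fold change -0.07, SE 0.02, adjusted p = 0.147), and Tk1 read 21.8, 23.4 and 22.2 FPKM with DMSO and 22.0, 20.9 and 20.1 FPKM with DEP, with overlapping groups (log2 fold change -0.09, SE 0.04, adjusted p = 0.2). Neither passed the test. Rrm1 averaged 35.5 ± 0.511 FPKM with DMSO and 36.1 ± 0.227 FPKM with DEP (SD, n = 3; log2 fold change 0.02, adjusted p = 0.554) and Dut 50.0 ± 0.774 FPKM with DMSO and 51.5 ± 0.826 FPKM with DEP (SD, n = 3; log2 fold change 0.04, adjusted p = 0.274). The small and the large reductase subunit changed unequally, and the ratio of Rrm2 to Rrm1 in FPKM was 2.14, 2.09 and 2.02 with DMSO and 1.73, 1.74 and 1.70 with DEP. In AML12 it was 4.07, 4.18 and 4.47 with DMSO and 4.22, 4.10 and 4.01 with DEP, with overlapping groups. The ratios were chosen after the values were seen and were not tested.

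**Figure D3:**
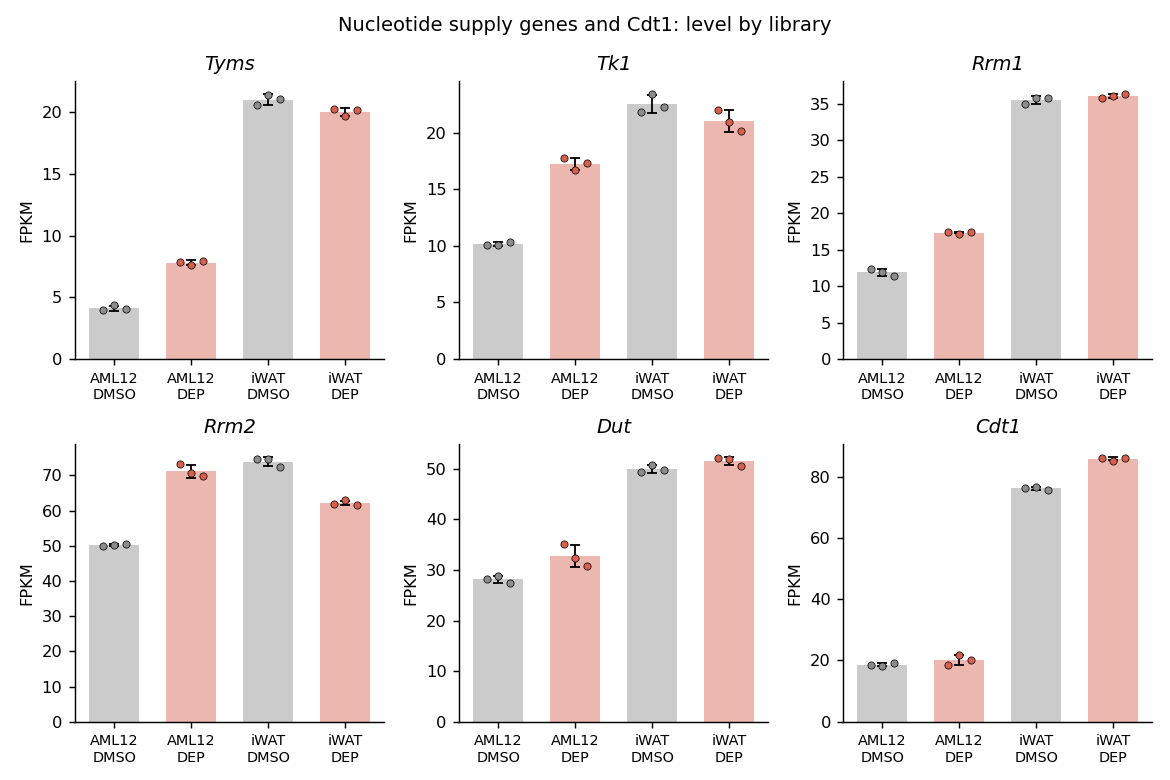
FPKM of the 5 nucleotide supply genes and Cdt1 in each library (points), with the mean (bar) and SD (error bar) of the 3 libraries of each group, DMSO in grey and DEP in red. In AML12 the 5 nucleotide genes are higher with DEP and Cdt1 overlaps, while in iWAT Rrm2 is lower with DEP, near 62.2 against 73.9 FPKM, and Cdt1 higher, near 85.9 against 76.3 FPKM.

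The 3 genes for methylation upkeep and uracil removal rose in AML12, with a median of 0.52. Uhrf1, which recognises half-methylated DNA behind the fork, read 22.3, 22.4 and 22.6 FPKM with DMSO and 34.9, 34.9 and 33.5 FPKM with DEP (log2 fold change 0.59, SE 0.02, adjusted p = 1.7e-05). Dnmt1, the maintenance methyltransferase that Uhrf1 recruits, read 13.4, 13.1 and 13.8 FPKM with DMSO and 19.1, 20.3 and 19.7 FPKM with DEP (log2 fold change 0.52, SE 0.03, adjusted p = 7.2e-05). Ung, the uracil DNA glycosylase, read 1.95, 2.45 and 2.25 FPKM with DMSO and 3.56, 3.50 and 3.34 FPKM with DEP (log2 fold change 0.48, SE 0.07, adjusted p = 0.00165). No DEP library overlapped a control for any of them.

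In iWAT, Uhrf1 read 90.5, 91.8 and 88.8 FPKM with DMSO and 98.05, 97.0 and 96.2 FPKM with DEP (log2 fold change 0.10, SE 0.02, adjusted p = 0.023) and Dnmt1 62.2, 62.7 and 61.3 FPKM with DMSO and 65.1, 65.6 and 65.5 FPKM with DEP (log2 fold change 0.07, SE 0.02, adjusted p = 0.045). Both rises were small and separated the groups. Leaving out a library raised their adjusted p to as much as 0.0742 and 0.132. Ung read 4.85, 5.09 and 5.36 FPKM with DMSO and 5.19, 5.31 and 5.45 FPKM with DEP and overlapped between groups (log2 fold change 0.05, SE 0.04, adjusted p = 0.509).

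The response differed between the lines for 40 of the 41 genes by limma's interaction term, fitted over the 12 libraries together. All 40 were higher in AML12, none was lower, and 29.2% of 14651 genes were called, 17.6% higher and 11.7% lower in AML12. The median of the AML12 minus the iWAT log2 fold change was 0.48, against 0.02 over all tested genes. The nucleotide class had the largest median difference, 0.74, followed by polymerase at 0.54, licensing at 0.54, helicase at 0.46, methylation and uracil at 0.45, and clamp and flap at 0.39. No test was made between classes, since genes of a class are not replicates.

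The largest single differences were those of Tyms, 0.85 (SE 0.04, adjusted p = 4.41e-07), Tk1, 0.80 (SE 0.05, adjusted p = 1.85e-06), and Rrm2, 0.74 (SE 0.03, adjusted p = 1.09e-07). For all 3 the iWAT fold change was below 0. Cdc6 differed by 0.69 (SE 0.06, adjusted p = 1.39e-05), Prim1 by 0.64 (SE 0.04, adjusted p = 1.9e-06) and Orc6 by 0.60 (SE 0.06, adjusted p = 2.37e-05). Mcm6 differed by 0.57 (SE 0.03, adjusted p = 6.84e-07), Mcm2 by 0.55 (SE 0.03, adjusted p = 6.91e-07) and Rpa1 by 0.55 (SE 0.03, adjusted p = 6.91e-07). Pole, Lig1, Uhrf1 and Dnmt1 differed by 0.56, 0.54, 0.49 and 0.45. The smallest differences that passed were Dut at 0.17 (SE 0.06, adjusted p = 0.043) and Gins4 at 0.19 (SE 0.06, adjusted p = 0.0299). Next came Rfc1 at 0.20 (SE 0.035, adjusted p = 0.00162) and Fen1 at 0.20 (SE 0.06, adjusted p = 0.0262). Fen1 is a low gene, whose change log2(FPKM + 1) understates, and its difference ran from 0.165 to 0.374 under other settings. The calls of Dut, Gins4 and Fen1 were lost under several alternatives, while that of Rfc1 held under each. Cdt1 gave -0.06 (SE 0.06, adjusted p = 0.517).

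**Figure D4:**
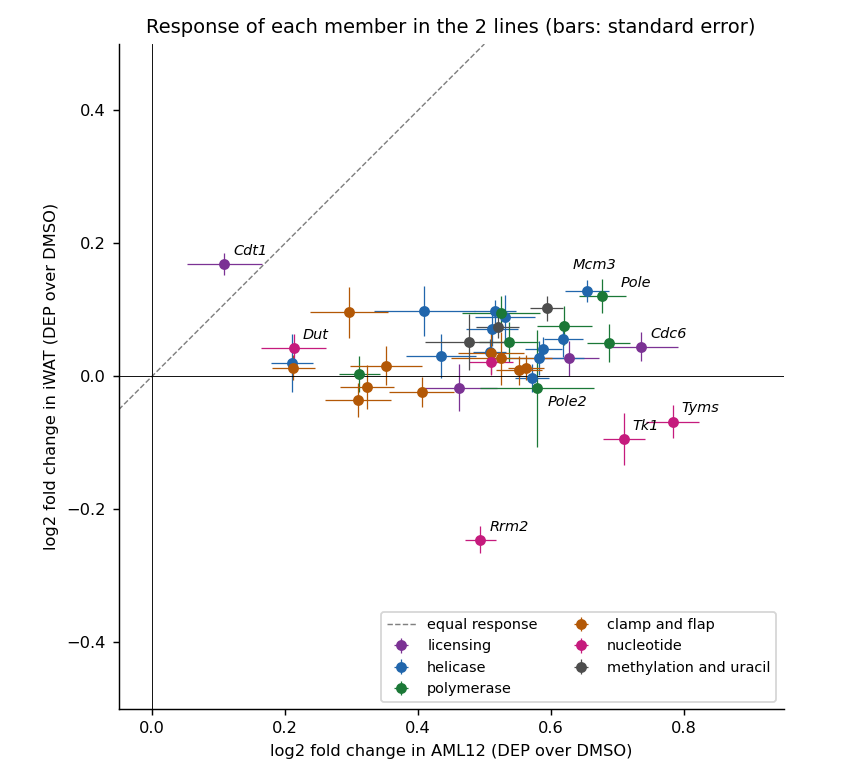
Log2 fold change of each member in AML12 (horizontal) against iWAT (vertical), with standard errors, coloured by class; the dashed line marks an equal response. Cdt1 lies by the line, 40 genes lie below it, and Rrm2, Tk1 and Tyms lie lowest against their AML12 rise.

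The lines also differed in the level of these genes without DEP. Mean FPKM with DMSO was higher in iWAT for all 41 genes, with ratios from 1.06 for Gins1 to 9.75 for Cdc45 and a median of 3.78. By class the median ratio was 4.67 for helicase, 4.02 for methylation and uracil, 3.99 for licensing, 3.90 for polymerase, 3.22 for clamp and flap and 2.22 for nucleotide. The most abundant member in AML12 with DMSO was Rrm2, at 50.3 FPKM, and in iWAT Pcna, at 124.9 FPKM. In 38 of the 41 genes each AML12 DEP library stayed below every iWAT DMSO library, the exceptions being Gins1, Pole2 and Rrm2. Neither the ratios nor this count were computed over all genes, so they are not a result particular to the members. For Tyms, AML12 rose from 4.12 to 7.80 FPKM, against 21.02 FPKM in iWAT with DMSO. The values come in a separate table for each line, so these levels are set side by side without a test.

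**Figure D5:**
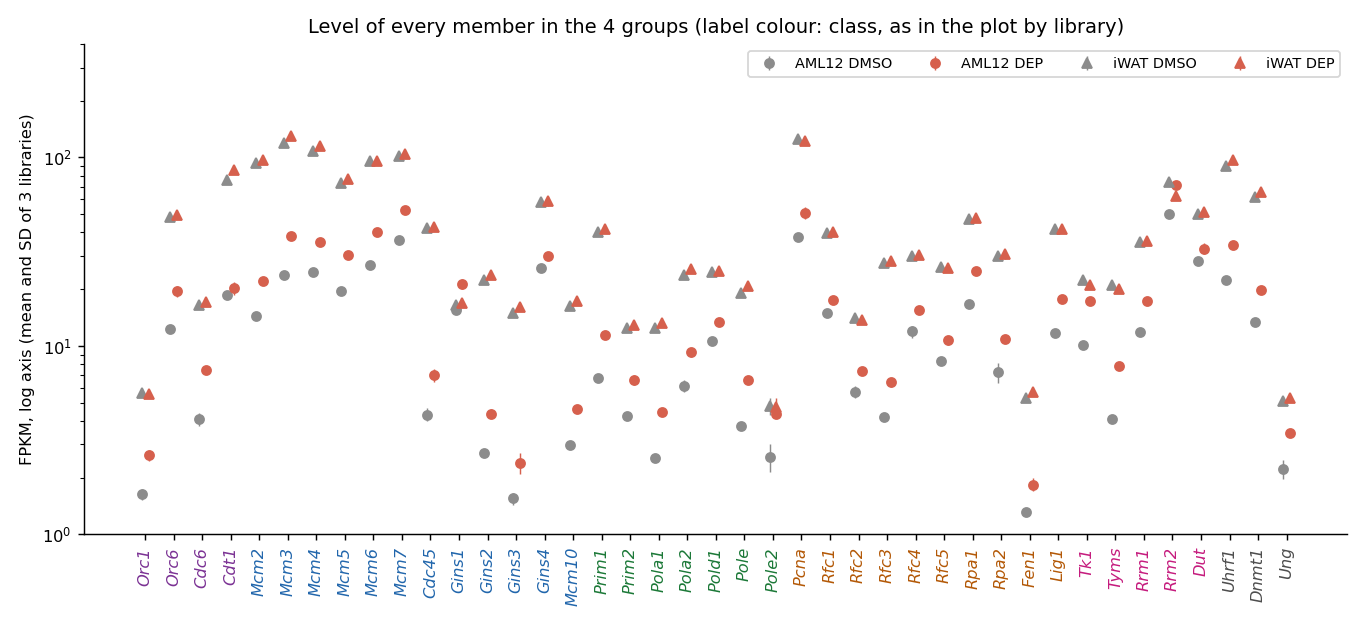
Mean FPKM on a log axis, with the SD of 3 libraries, for each member in AML12 (circles) and iWAT (triangles), DMSO in grey and DEP in red, gene labels coloured by class. By these means the red circle lies below the grey triangle for each gene but Gins1, at 21.4 against 16.5 FPKM. Rrm2 with DEP is higher in AML12, at 71.2 FPKM, than in iWAT, at 62.2 FPKM.

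Other genes of the same processes were taken from lists that do not overlap the members. Of 66 such genes tested in AML12, 47 rose, 5 fell and 14 did not pass, with a median log2 fold change of 0.28. Over all genes tested in AML12, 23.9% rose and 15.3% fell. For origin firing 11 of 13 rose and none fell, among them Topbp1, an activator of the ATR kinase that also serves in firing, with 11.5, 11.7 and 11.6 FPKM with DMSO and 16.1, 16.04 and 15.8 FPKM with DEP (log2 fold change 0.43, SE 0.02, adjusted p = 4.78e-05), and Donson with 0.59, Dbf4 with 0.33 and Mtbp with 0.33. For the fork and its polymerases 13 of 17 rose and 1 fell. Atad5, which unloads the clamp, read 4.02, 4.001 and 3.99 FPKM with DMSO and 5.76, 5.995 and 5.88 FPKM with DEP (log2 fold change 0.46, SE 0.03, adjusted p = 0.000129), and Wdhd1, Pold2 and Dna2 had 0.46, 0.47 and 0.64. The fall was that of Pold4, the smallest subunit of polymerase delta, with 23.6, 25.6 and 24.04 FPKM with DMSO and 20.6, 19.4 and 21.3 FPKM with DEP (log2 fold change -0.25, SE 0.04, adjusted p = 0.00478). For chromatin assembly 6 of 7 rose, among them the remodeller Hells with 17.2, 18.3 and 17.8 FPKM with DMSO and 28.4, 28.5 and 27.9 FPKM with DEP (log2 fold change 0.64, SE 0.03, adjusted p = 1.95e-05), and Chaf1b (0.66), Hat1 (0.49) and Asf1b (0.73).

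In the wider supply of deoxynucleotides 8 of 11 genes rose and 2 fell in AML12. Dck, Shmt1 and the nucleoside transporter Slc29a1 had log2 fold changes of 0.42, 0.42 and 0.43. The 2 that fell were Rrm2b, the p53-induced reductase subunit, at -0.17 (adjusted p = 0.0482), and Tk2, the mitochondrial thymidine kinase, at -0.22 (adjusted p = 0.0143). The share of falls on this list was near the 15.3% of all tested genes. For pyrimidine synthesis 2 of 6 rose, Cad at 0.23 and Umps at 0.28, and none fell, a share of rises near that of all genes. For purine synthesis 7 of 12 rose and 2 fell, with Gart at 0.24, Atic at 0.19, Ppat at 0.27, and the falls Impdh2 at -0.08 and Adss, the adenylosuccinate synthetase, at -0.30. Adss read 93.6, 94.1 and 96.4 FPKM with DMSO and 76.9, 76.1 and 76.95 FPKM with DEP (adjusted p = 8.39e-05). The share of purine genes that fell was also near that of all genes. The medians were 0.11 for pyrimidine and 0.13 for purine synthesis, against 0.51 for the 5 nucleotide members.

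In iWAT 6 of 67 of these other genes rose, 4 fell and 57 did not pass, with a median of 0.01. Over all genes tested in iWAT 4.03% rose and 4.52% fell, and with so few calls these counts are not a result about the process. The rises were Recql4 (0.17), Atad5 (0.13), the chromatin assembly subunits Chaf1a (0.09) and Chaf1b (0.10), Shmt1 (0.14) and Cad (0.13). Cad, the enzyme of the first steps of pyrimidine synthesis, had the smallest adjusted p of these, 0.0199, with 26.3, 25.4 and 25.2 FPKM with DMSO and 28.6, 27.8 and 28.2 FPKM with DEP. The falls were Samhd1 (-0.16), the phosphohydrolase that breaks down deoxynucleotides, Ctps2 (-0.18), Cmpk1 (-0.11) and the polymerase epsilon subunit Pole4 (-0.08). No gene for purine synthesis passed in iWAT, 0 of 12 up and 0 of 12 down.

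Markers of cycling cells moved with the members in AML12, where 8 of 8 rose, against 23.9% of all tested genes. The cell cycle inhibitor Cdkn1a rose too (0.19). Mki67 read 12.4, 12.6 and 12.5 FPKM with DMSO and 21.4, 20.4 and 20.9 FPKM with DEP (log2 fold change 0.70, SE 0.03, adjusted p = 1.17e-05), and Top2a, Cdk1 and E2f1, itself an activator of replication genes, had log2 fold changes of 0.41, 0.40 and 0.49. In iWAT 1 of the 8 rose, E2f1 (0.12), and 4 fell, while Cdkn1a rose (0.55, adjusted p = 0.000259). All genes tested in iWAT gave 4.03% up and 4.52% down. The falls were Ccne1 (-0.29), Top2a (-0.11), Ccnb1 (-0.10) and Ccna2 (-0.09). Mki67 read 44.01, 43.3 and 44.5 FPKM with DMSO and 44.9, 45.2 and 46.1 FPKM with DEP in iWAT and did not pass (adjusted p = 0.206).

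Cell type markers differed between groups too. Of 9 hepatocyte markers tested in AML12, 7 rose and 1 fell, against 23.9% up and 15.3% down over all tested genes. The summed FPKM of the 12 on the list was 3255 to 3273 with DMSO and 3808 to 3842 with DEP, mostly the keratins Krt8 and Krt18. The 6 leukocyte markers summed to 12.2 to 13.6 FPKM with DMSO and 5.99 to 6.35 FPKM with DEP, mostly Cd68, while Ptprc stayed near 0 at up to 0.0255 FPKM. The mesenchymal markers summed to 18.7 to 20.1 FPKM with DMSO and 13.2 to 14.2 FPKM with DEP in AML12, nearly all of it Ly6a. In iWAT 6 of 7 mesenchymal markers fell, against 4.52% of all tested genes. The mesenchymal sum there was 325 to 334 FPKM with DMSO and 240 to 249 FPKM with DEP. The adipocyte list there summed to 19.96 to 21.3 FPKM with DMSO and 16.8 to 17.9 FPKM with DEP. The AML12 adipocyte sum was 2.34 to 2.38 FPKM with DMSO and 2.44 to 2.61 FPKM with DEP, with Lep, Plin1 and Retn at 0 or not listed. The iWAT hepatocyte sum was 9.09 to 12.2 FPKM with DMSO and 12.9 to 13.6 FPKM with DEP, mostly Ass1, and its leukocyte sum was 11.2 to 12.4 and 13.8 to 14.3 FPKM, with Adgre1 and Ptprc at 0 or not listed. Endothelial markers summed to at most 0.567 FPKM in any library. The part of these markers in the replication results was not tested.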

How the data were processed

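The authors deposited FPKM values per gene, 1 table per line. Per the labels' protocols the libraries were stranded total RNA, and per the submitters' processing notes Trimmomatic did the trimming and HISAT2 the alignment, to GRCm39; the counting tool, its strand setting and the versions are not given in the sources used here. Symbols came from GENCODE M21 and matched 95.1% of AML12 and 94.9% of iWAT identifiers.

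Each line was fitted alone with limma 3.58.1 in R 4.3.3 on log2(FPKM + 1), which understates the fold change of low genes, moderated along a trend with mean level. A gene was tested if 3 or more libraries reached 0.5 FPKM, two-sided, with Benjamini-Hochberg adjustment over all of them and a threshold of 0.05. The difference between lines was the interaction term over genes in both tables. Whole reads were recovered from FPKM with the annotated exon length for 89.4% of genes in either line, within 0.001 read. Nearly all others took a searched length. The sources used here do not say whether a read or a pair was counted. Of the counts from 1 to 20 recovered with annotated lengths, 63.6% in AML12 and 64.7% in iWAT were even. If both reads of a pair were counted, independent fragments were fewer than the reads given. The recovered totals set counting precision only.

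Members and lists were chosen with earlier results of these data known. Values in every library are given, per class, for the up to 3 members with the smallest p in each line and up to 2 for the interaction, for Rrm2, whose iWAT call went against the majority, and for Cdt1, not called in AML12; of other lists up to 4 called genes with the smallest p per line, and 4 cycling markers. Alternatives were a pseudocount of 0.1, no filter or 1 FPKM, median centring, upper quartile scaling, a threshold of 0.01, voom, a replicate block, no mean trend, a joint fit, and leaving out each library. The procedure was tested on simulated data. Python 3.11.15 with pandas 2.3.3, numpy 2.4.6 and matplotlib 3.10.9 served for the rest.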

Additional observations from a re-analysis of the deposited data

Results flagged for a closer look

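The response to DEP differed between AML12 and iWAT for 40 members, by the interaction test in limma at an adjusted p below 0.05 (29.2% of all genes tested were called). Each value is the log2 fold change of AML12 less that of iWAT, so a positive value means a higher response in AML12. Among licensing genes the difference was 0.48 for Orc1, 0.60 for Orc6 and 0.69 for Cdc6. Among helicase genes the difference was 0.55 for Mcm2, 0.53 for Mcm3, 0.42 for Mcm4, 0.56 for Mcm5, 0.57 for Mcm6, 0.47 for Mcm7, 0.55 for Cdc45, 0.40 for Gins1, 0.44 for Gins2, 0.31 for Gins3, 0.19 for Gins4 and 0.44 for Mcm10. In the polymerase and primase class the difference was 0.64 for Prim1, 0.49 for Prim2, 0.54 for Pola1, 0.43 for Pola2, 0.31 for Pold1, 0.56 for Pole and 0.60 for Pole2. Among clamp and flap genes the difference was 0.43 for Pcna, 0.20 for Rfc1, 0.35 for Rfc2, 0.47 for Rfc3, 0.34 for Rfc4, 0.34 for Rfc5, 0.55 for Rpa1, 0.50 for Rpa2, 0.20 for Fen1 and 0.54 for Lig1. In nucleotide supply the difference was 0.80 for Tk1, 0.85 for Tyms, 0.49 for Rrm1, 0.74 for Rrm2 and 0.17 for Dut. For methylation upkeep and uracil removal the difference was 0.49 for Uhrf1, 0.45 for Dnmt1 and 0.42 for Ung.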

How the results depend on the processing

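No called result changed direction under any alternative. Among iWAT fold changes that did not pass, those of Mcm6, Gins4, Pold1, Pole2, Rfc4, Rfc5 and Lig1, all near 0, changed sign with a library left out, from -0.09 to 0.05 for Pole2, and that of Mcm6 also under other settings. In AML12 the members up ranged from 39 to 41 and the members down stayed at 0; the members responding more in AML12 ranged from 36 to 40. In iWAT, 1 member fell under each alternative, while the members up were 3 without a filter, 2 at a threshold of 0.01, 2 with a replicate block, 2 without the mean trend, and 2 to 3 with a library left out. All iWAT genes called, 1152 as reported, were 664 without a filter, 357 at 0.01, 1995 with voom, 503 with the block, 673 without the trend, and 507 to 689 with a library left out. At 0.01 the AML12 genes called were 3099 and the interaction calls 2646. The cause was not tested, beyond the stricter threshold and the fewer samples themselves. Replicate numbers did not pair the libraries: same-numbered libraries deviated with correlations from -0.056 to 0.029. The block gave 40 members up in AML12 and 39 for the interaction, and 4231 AML12 genes called. With 3 libraries a group, small iWAT changes lie near what the spread allows, and Fen1 in AML12 rests on as few as 134 reads.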
